A study of Arabidopsis thaliana with 24 samples.

Results

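The genes described here encode 40 NLR immune receptors of Arabidopsis thaliana. These are nucleotide-binding genes, mostly with leucine-rich repeats, named and picked by gene code with earlier results of these data known. They make up 40 of 23202 genes in the authors' deposited table for the ecotype Col-0, where every member has a row. In the authors' deposited table for the ecotype Ler, 29 of the 40 members are among 23059 identifiers, and 11 are not listed under the same code, among them RPP1, RPS6, VICTL, VICTR, CSA1, CHS3, RPP2B, RPP7, ZAR1 and CAR1. The set holds 24 receptors of the TIR class, 11 with a coiled coil and 5 helper receptors.

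NLR proteins are intracellular receptors that bind pathogen effectors or watch over host proteins that effectors attack. TIR receptors carry an enzymatic TIR domain at the amino end and act through EDS1 with PAD4 or SAG101 and through helper receptors of the ADR1 and NRG1 families, while many coiled-coil receptors can form membrane channels on their own. Activation leads to salicylic acid synthesis, pathogenesis-related (PR) proteins and often local cell death. Many of these genes sit in tandem clusters of similar copies that differ between ecotypes.

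Tetraploid (4x) Ler, diploid (2x) Ler, tetraploid Col-0 and diploid Col-0 seedlings gave 2 RNA-seq libraries each from poly(A) RNA at an age of 2 weeks. No other allele, transgene or treatment is given in the labels, which name neither the origin of the tetraploid lines nor the day length behind each library. The study asked how genome doubling, flowering time and the histone mark H3K27me3 go together in the ecotypes; its 16 chromatin libraries were not analysed here. The labels do not say whether the libraries of a group came from separately grown plants, so the p-values speak only of the spread between libraries, part of which may be technical.

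The tables give a mean normalized read count over 4 libraries for each gene, a log2 fold change with its standard error, and a p-value. The means are written with 15 significant digits, which allowed the whole reads of each library to be solved from them. The search was kept to reads near the deposited fold change, and the deposited standard error entered the fit. Within that range all 29 members in Ler and all 40 in Col-0 had a single solution. Where both ploidies had reads, it returned the deposited log2 fold change to within 7.25e-07, which is not a fully independent check. Values per library below are these reads divided by the library's size factor, called normalized counts. They compare libraries for 1 gene and are not corrected for gene length, so levels of different genes are not compared. The average library held 22138532 normalized reads in Ler and 22343366 normalized reads in Col-0, with size factors between 0.92 and 1.14. Fold changes are tetraploid over diploid, a sign missing from the tables and read from FLC, ESP and ESM1 in Col-0. Each ± is the authors' standard error, except for a difference between ecotypes. There it is the root of the summed squares of the authors' standard errors in both ecotypes. A gene is called where the authors' adjusted p is under 0.05. Counts are relative to the library, so transcripts per cell or per genome copy were not measured, and in whole seedlings fewer cells of a type and less RNA per cell cannot be told apart.

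The Col-0 groups also differed in FLC, ESP and ESM1. The authors' deposited table put FLC, which delays flowering, 6.17-fold higher in tetraploid Col-0 (log2 2.63 ± 0.17). ESP and ESM1 steer the breakdown of glucosinolates, and Col-0 is known for low ESP and high ESM1. In the authors' deposited table ESP was 123-fold higher (log2 6.94 ± 0.07) and ESM1 15.2-fold lower (log2 −3.93 ± 0.07) in tetraploid Col-0, against log2 fold changes of 0.58 ± 0.11 and 0.08 ± 0.13 in Ler. The library group read as tetraploid Col-0 thus lacked the pattern known for Col-0, and with the opposite sign the diploid group would lack it. Ploidy and other genetic differences between these lines cannot be told apart in any Col-0 value below.

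Defence genes set 1 diploid Col-0 library apart from the other. PR1, an antimicrobial marker of salicylic acid signalling, had 3483 normalized counts in one diploid Col-0 library and 1013 in the other, and FMO1, an enzyme of systemic resistance, had 494 and 47.6. Without the first of these libraries, RRS1 alone lost its call among the members called in Col-0. Among 39 members with at least 10 normalized counts in both diploid Col-0 libraries, the median fold between the libraries was 1.07. Between the tetraploid Col-0 libraries the median fold was 1.1 and the highest 1.69, for VICTR. In Ler the median fold between libraries was 1.13 in both ploidies. Tissue markers moved as well, without a common direction. The 4 root markers summed to 2324 to 2368 normalized counts in tetraploid and 3238 to 3891 in diploid Col-0, and to 2902 to 3431 in tetraploid and 2068 to 2882 in diploid Ler. PYK10 made up nearly all of these sums and was called lower in tetraploid Col-0 according to the authors' deposited table (log2 −0.61 ± 0.09, adjusted p = 2.1e-09, DESeq2). CASP1, of the root endodermis, went the other way, with 16.4 and 24.5 in tetraploid and 7.09 and 7.88 in diploid Col-0, and was not called (log2 1.45 ± 0.85 in the authors' deposited table). RHD2 overlapped between the Col-0 ploidies. COBL9, which marks root hairs, had no tetraploid reads in either ecotype. Its diploid libraries held only 3 and 3 reads in Col-0 and 4 and 4 reads in Ler. It was not called in Col-0 and had no adjusted p in Ler. Of 3 green shoot markers the authors' deposited table called 2 lower in tetraploid Col-0, LHCB2.1 (log2 −0.83 ± 0.06, adjusted p = 2e-35, DESeq2) and LHCB1.3 (log2 −0.23 ± 0.05, adjusted p = 0.0004). In Ler it called LHCB2.1 higher in the tetraploid (log2 0.39 ± 0.10, adjusted p = 0.002, DESeq2). SAG13, a senescence marker, had 17.4 and 14.7 normalized counts in tetraploid and 2.99 and 0.928 in diploid Ler, and 463 and 354 in tetraploid and 559 and 1683 in diploid Col-0. It was called in neither ecotype, with log2 fold changes of 3.05 ± 1.15 in Ler and −1.46 ± 0.75 in Col-0 in the authors' deposited table. SAG12, the other senescence marker, had 1 read in all in Ler, in a diploid library, and is not listed in Col-0. Of 2 seed markers the oil-body gene OLEO1 was called higher in Col-0, and their sums ran from 15.3 to 26.2 in tetraploid and from 2.03 to 10.5 in diploid Col-0. In Ler neither seed marker had an adjusted p, and the sums ran from 1.09 to 1.96 in tetraploid and from 1.86 to 8.97 in diploid Ler. The flower markers AP3, PI and AG had no call in Col-0. AP3 and PI had no adjusted p in Ler, where AG is not listed. All stood at 9.12 normalized counts or fewer wherever listed. The part of root, seed, green and senescing tissue in the results was not tested.

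In Col-0, receptor transcripts differed between ploidies in a large share of the set, mostly toward lower levels in tetraploid seedlings. The authors' deposited table called 17 of 39 members with an adjusted p (43.6%), 4 higher and 13 lower in tetraploid Col-0, where 15.4% of 21420 genes were called. Of these genes 7.13% were called higher and 8.23% lower. At least a 2-fold change was called in 14 members, and in 5.11% of all genes. The members were picked with earlier results of these data known. That choice may have raised their shares, which was not tested. The median log2 fold change of the members in the authors' deposited table was −0.26, against −0.00 over all genes, and the median absolute value 0.53, against 0.24; both member medians were the same with the 2 genes without tetraploid reads at their bounds. Both tetraploid libraries lay above or below both diploid ones in 31 of 39 members (79.5%), a pattern that held for 62.2% of all genes. Calls fell to 14 of 23 tested TIR receptors (60.9%, 4 higher and 10 lower), 3 of 11 coiled-coil receptors (27.3%, all lower) and 0 of 5 helpers; the difference between classes was not tested.

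**Figure D1:**
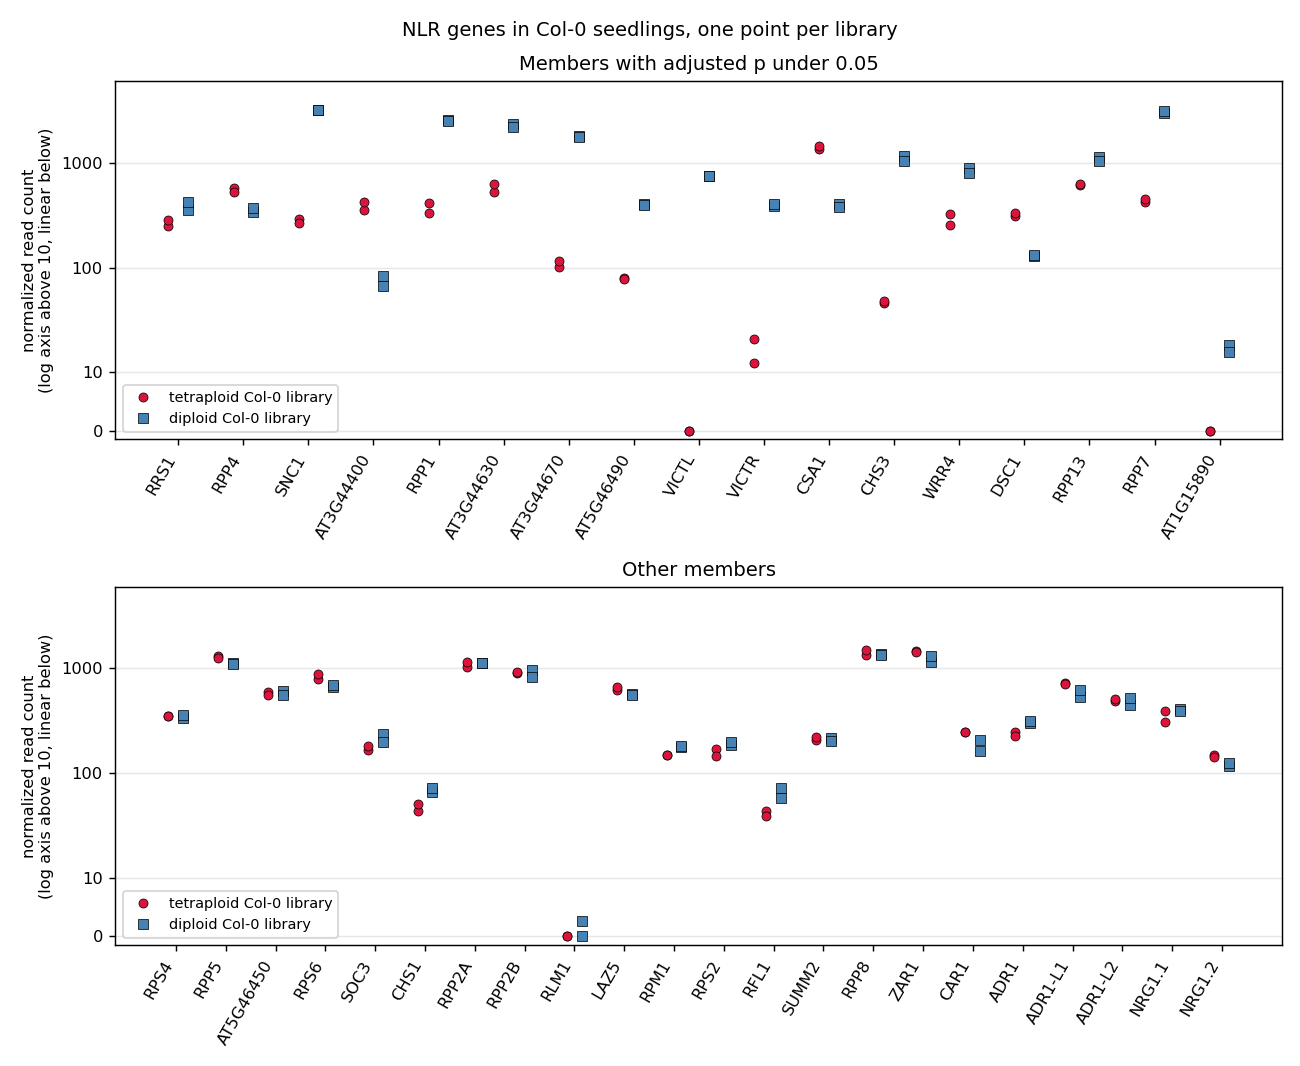
Normalized read count of 39 NLR genes in the 4 Col-0 libraries, tetraploid (circles, left) and diploid (squares, right), on an axis that is logarithmic above 10 and linear below. The upper panel holds the 17 called members, whose lack of overlap between ploidies largely follows from that choice. VICTL and AT1G15890 are at 0 in both tetraploid libraries. In the lower panel most of the other members lie close together.

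The RPP4/RPP5/SNC1 cluster on chromosome 4 held opposite changes side by side. SNC1 is a TIR receptor whose overactive form causes autoimmunity. It had 292 and 265 normalized counts in the tetraploid libraries, against 3204 and 3203 in the diploid libraries of Col-0. The diploid pair was nearly equal and stood far above the tetraploid pair, and the authors' deposited table gave an 11.5-fold lower level in tetraploid Col-0 (log2 −3.53 ± 0.11, adjusted p = 1.8e-234, DESeq2). Its neighbour RPP4 gives resistance to downy mildew, the oomycete Hyaloperonospora arabidopsidis. RPP4 had 577 and 521 normalized counts in tetraploid and 342 and 370 in diploid Col-0, without overlap. It was 1.54-fold higher in the tetraploid according to the authors' deposited table (log2 0.62 ± 0.16, adjusted p = 0.001, DESeq2), a call that was lost against an empirical null (adjusted p = 0.13). RPP5, a further downy mildew receptor, had 1306 and 1248 in tetraploid and 1119 and 1103 in diploid Col-0 and was not called in the authors' deposited table (log2 0.20 ± 0.10, adjusted p = 0.21).

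Every tested member of the RPP1 cluster on chromosome 3 was called, 1 higher and 3 lower. RPP1 is a TIR receptor known for recognizing the downy mildew effector ATR1 in other ecotypes. Its normalized counts were 331 and 414 in tetraploid Col-0, against 2523 and 2497 in diploid Col-0. AT3G44670 had 102 and 116 in the tetraploid libraries and 1782 and 1768 in the diploid ones. AT3G44630 had 530 and 628 in tetraploid Col-0 and 2314 and 2193 in diploid Col-0. In all 3 genes the diploid libraries lay far above the tetraploid ones. The authors' deposited table gave RPP1 a 6.73-fold lower level in tetraploid Col-0 (log2 −2.75 ± 0.12, adjusted p = 9.7e-123, DESeq2). AT3G44670 was 16.3-fold lower there (log2 −4.03 ± 0.15, adjusted p = 2.5e-161) and AT3G44630 3.89-fold lower (log2 −1.96 ± 0.11, adjusted p = 1e-68), both from the authors' deposited table. AT3G44400 went the other way, with 356 and 418 normalized counts in tetraploid Col-0 and 66.9 and 82.3 in diploid Col-0. In the authors' deposited table it was 5.18-fold higher in the tetraploid (log2 2.37 ± 0.23, adjusted p = 5.6e-22, DESeq2).

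In the RPS6 cluster on chromosome 5, adjacent members fell to low levels or to no reads while the members on one side of them did not. VICTR takes part in the root growth arrest caused by the small molecule DFPM, and VICTL is its paralog. VICTL had no reads in either tetraploid library, against 750 and 740 normalized counts in the diploid libraries, which makes it at least 470.1-fold lower with a floor of 3 reads over the tetraploid group (adjusted p = 1.5e-14 in the authors' deposited table, DESeq2). VICTR had 20.8 and 12.3 in tetraploid and 387 and 403 in diploid Col-0. AT5G46490, a TIR gene near them, had 79.8 and 77.7 in tetraploid and 408 and 399 in diploid Col-0. In each of these 3 genes the diploid levels lay far above the tetraploid ones. VICTR was 24.1-fold lower in tetraploid Col-0 in the authors' deposited table (log2 −4.59 ± 0.34, adjusted p = 2.6e-40, DESeq2), and AT5G46490 was 5.13-fold lower (log2 −2.36 ± 0.22, adjusted p = 7.9e-24). RPS6, which recognizes the bacterial effector HopA1, had 787 and 892 normalized counts in tetraploid and 665 and 688 in diploid Col-0. It was not called in the authors' deposited table (log2 0.31 ± 0.13, adjusted p = 0.084), though limma-voom on the recovered reads called it higher (adjusted p = 0.023). AT5G46450 had 591 and 555 in tetraploid and 610 and 558 in diploid Col-0, which overlap.

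The receptor pair CHS3 and CSA1, neighbours on chromosome 5 whose proteins work together, moved in opposite directions. CHS3 carries an extra LIM domain, and its mutant form is sensitive to chilling. CHS3 had 45.9 and 48.1 normalized counts in tetraploid Col-0, against 1152 and 1040 in diploid Col-0. CSA1 had 1349 and 1440 in tetraploid Col-0, against 402 and 375 in diploid Col-0. In both genes the libraries of the ploidies lay far apart, without overlap. The authors' deposited table gave CHS3 a 23.3-fold lower level in the tetraploid (log2 −4.54 ± 0.20, adjusted p = 8.9e-107, DESeq2) and CSA1 a 3.59-fold higher one (log2 1.84 ± 0.12, adjusted p = 2.7e-49).

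Other receptor pairs differed less. RPS4 and RRS1 jointly recognize bacterial effectors, RRS1 through a WRKY domain that acts as bait. RRS1 had 250 and 285 normalized counts in tetraploid and 355 and 420 in diploid Col-0, and the authors' deposited table gave it a 1.45-fold lower level in the tetraploid (log2 −0.53 ± 0.19, adjusted p = 0.033, DESeq2). That call was lost in 3 of 4 fits that left out 1 library, with adjusted p = 0.27 and 0.061 without either tetraploid library and 0.34 without the diploid library of higher size factor, and against an empirical null (adjusted p = 0.47). RPS4 had 351 and 350 in tetraploid and 333 and 361 in diploid Col-0. RPP2A and RPP2B, both needed for one downy mildew resistance, were at log2 fold changes of −0.04 ± 0.11 and 0.02 ± 0.12 according to the authors' deposited table. SOC3 and CHS1, partners in a chilling-sensitive autoimmune mutant, were at −0.33 ± 0.23 and −0.55 ± 0.41 there and were not called; these genes overlap each other, so reads of the 2 cannot be told apart if counting ignored strand.

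TIR receptors outside these clusters included WRR4 and DSC1. WRR4 gives resistance to white rust. It had 323 and 253 normalized counts in tetraploid and 896 and 802 in diploid Col-0, and was 2.95-fold lower in the tetraploid according to the authors' deposited table (log2 −1.56 ± 0.16, adjusted p = 8.2e-21, DESeq2). DSC1, identified through the autoimmunity of camta3 mutants, had 309 and 332 in tetraploid and 129 and 132 in diploid Col-0. It was 2.46-fold higher in the tetraploid according to the authors' deposited table (log2 1.3 ± 0.22, adjusted p = 5.9e-08, DESeq2). Its gene overlaps WRKY19, which encodes a receptor fused to a WRKY domain and had 441 and 436 normalized counts in tetraploid and 653 and 550 in diploid Col-0. The authors' deposited table called WRKY19 lower in the tetraploid (log2 −0.45 ± 0.15, adjusted p = 0.023, DESeq2), the opposite direction to DSC1. LAZ5, a TIR receptor behind the cell death of acd11 mutants, was not called in the authors' deposited table (log2 0.20 ± 0.14). RLM1 had 1 read in all in Ler, and none in tetraploid and 0 and 3 reads in diploid Col-0, so no fold is given.

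Among coiled-coil receptors, RPP7 changed most in Col-0 of those with reads in both ploidies. RPP7, a downy mildew receptor, had 424 and 450 normalized counts in tetraploid Col-0, against 2998 and 3084 in diploid Col-0. It was 6.96-fold lower in the tetraploid according to the authors' deposited table (log2 −2.80 ± 0.10, adjusted p = 1.9e-170, DESeq2). RPP13, from another downy mildew locus, had 610 and 631 in tetraploid and 1140 and 1036 in diploid Col-0. Its level was 1.75-fold lower in the tetraploid according to the authors' deposited table (log2 −0.81 ± 0.12, adjusted p = 9.3e-10, DESeq2). AT1G15890 had no reads in tetraploid Col-0, against 18 reads in each diploid library, at least 10.7-fold lower by the floor of 3 reads (adjusted p = 0.0029 in the authors' deposited table, DESeq2; 0.2 against an empirical null). Near-identical copies exist for RPP7 and for the clustered TIR genes, so part of their reads may be placed on the wrong copy. In TAIR10.1, 11 members overlap another gene listed in the Col-0 table, and whether counting used strand is not given.

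The other 8 coiled-coil receptors were not called in Col-0. RPM1 and RPS2, which guard the host protein RIN4, were at log2 fold changes of −0.26 ± 0.25 and −0.29 ± 0.24 according to the authors' deposited table. RFL1 stood at −0.67 ± 0.43 in the authors' deposited table. SUMM2, which monitors the MEKK1 and MPK4 kinase cascade through CRCK3, was at 0.01 ± 0.22 in the authors' deposited table. RPP8 had 1353 and 1500 normalized counts in tetraploid and 1361 and 1344 in diploid Col-0, which overlap. ZAR1, which assembles into a channel with the kinase partners RKS1 and ZED1, had 1469 and 1422 in tetraploid and 1156 and 1310 in diploid Col-0, without overlap but not called (adjusted p = 0.14 in the authors' deposited table, DESeq2). CAR1, a receptor for conserved bacterial effectors, had 250 and 249 in tetraploid and 163 and 206 in diploid Col-0 (log2 0.43 ± 0.22, adjusted p = 0.22 in the authors' deposited table; limma-voom adjusted p = 0.045).

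The helper receptors, through which many of the other receptors signal, had no call in Col-0 and 1 with an unadjusted p under 0.05 in the authors' deposited table. ADR1 had 250 and 227 normalized counts in tetraploid and 303 and 317 in diploid Col-0. ADR1-L1 had 731 and 716 in tetraploid and 537 and 616 in diploid Col-0, and ADR1-L2 had 493 and 510 in tetraploid and 450 and 519 in diploid Col-0. NRG1.1 had 310 and 395 in tetraploid and 409 and 392 in diploid Col-0, and NRG1.2 had 149 and 142 in tetraploid and 117 and 126 in diploid Col-0. Their log2 fold changes in the authors' deposited table ran from −0.38 ± 0.19 for ADR1 to 0.33 ± 0.14 for ADR1-L1. Limma-voom on the recovered reads called these outer 2, ADR1 lower (adjusted p = 0.031) and ADR1-L1 higher (adjusted p = 0.022).

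**Figure D2:**
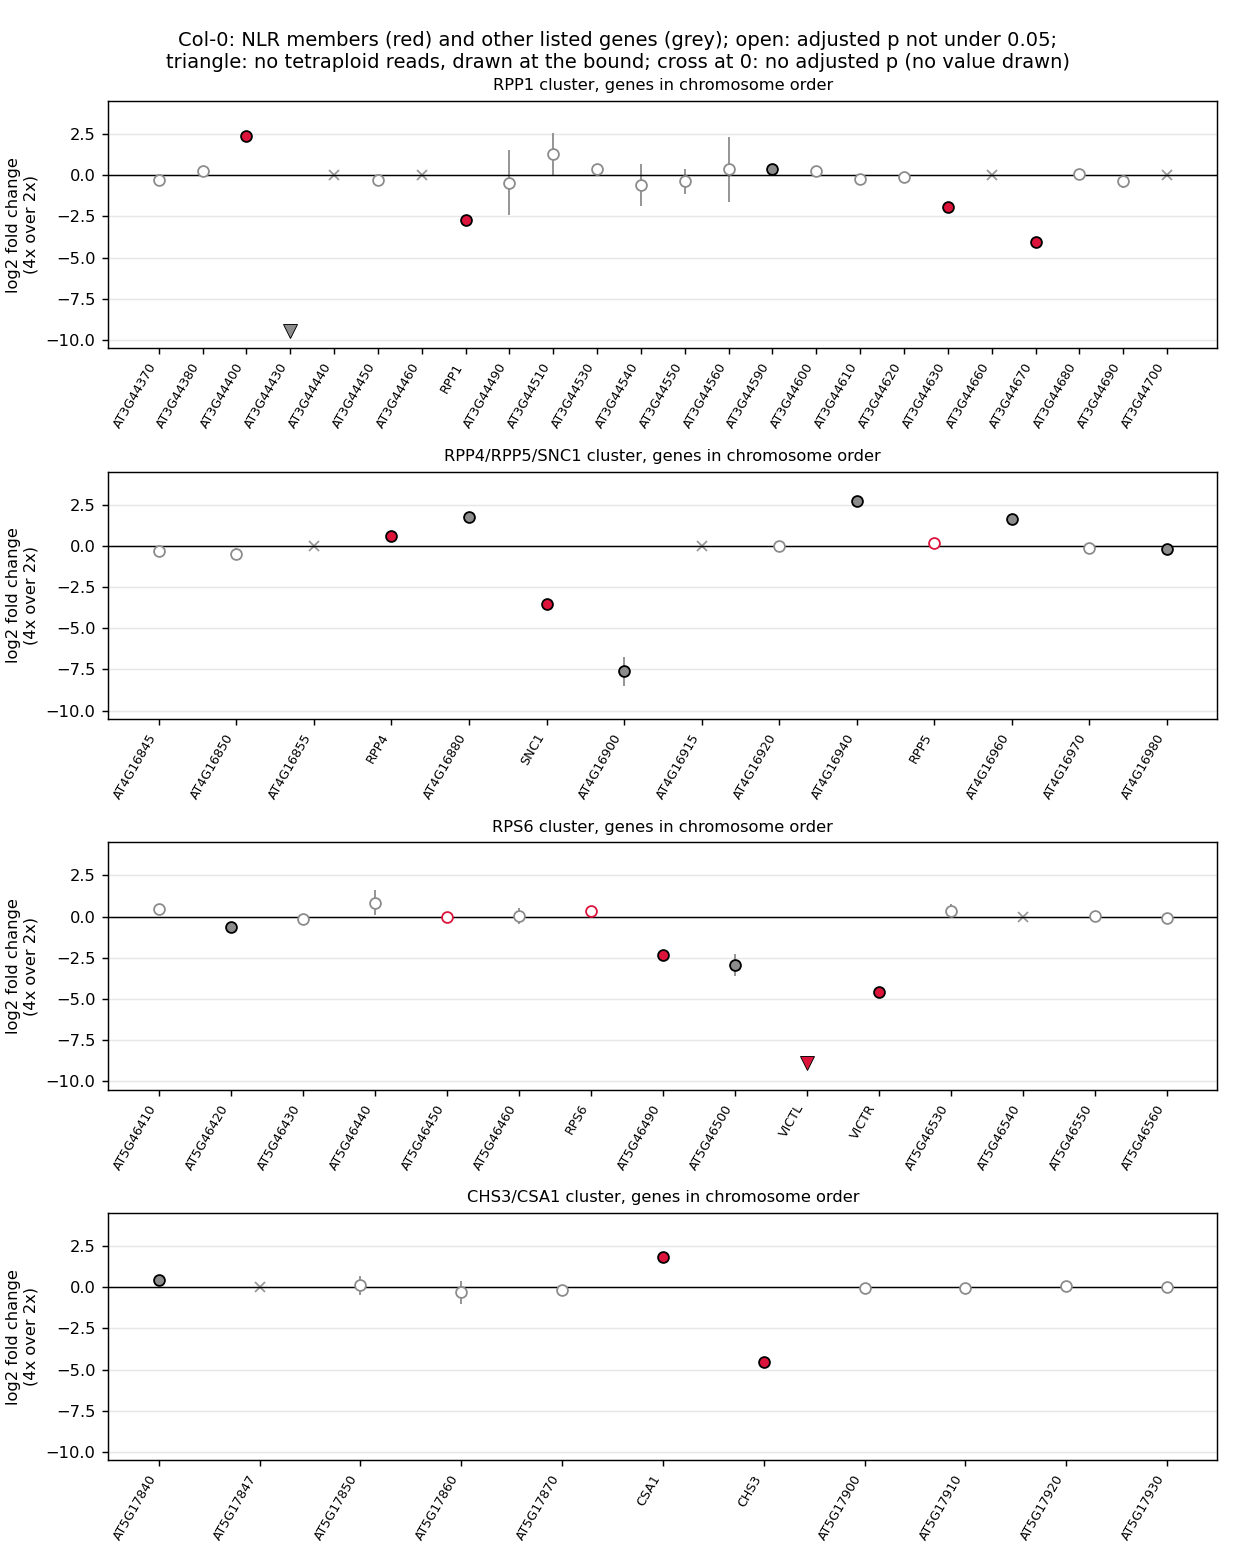
Log2 fold change, tetraploid over diploid Col-0, with its standard error, for the members (red) and the other listed genes (grey) of 4 receptor clusters in the order of the chromosome. In the RPP1 cluster AT3G44400 is at 2.37 and RPP1 at −2.75, and in the RPS6 cluster the 4 adjacent genes from AT5G46490 to VICTR, with VICTL drawn at its bound, are all called lower while RPS6 beside them is at 0.31.

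Gene order in the assembly TAIR10.1 showed that these changes did not run evenly along the clusters. Between the outermost members of the RPP1 cluster and just beside them, 2 of 16 other tested genes were called in Col-0. Of all genes 15.4% were called there. AT3G44590 was called at 0.39 ± 0.13 in the authors' deposited table. The other called gene, AT3G44430, had no tetraploid reads and a log2 fold change of −9.48 or lower against the floor. In the RPP4/RPP5/SNC1 cluster 5 of 9 other tested genes were called. AT4G16900, next to SNC1, had 2.19 and 1.02 normalized counts in tetraploid Col-0 (3 reads in all), against 307 and 315 in diploid Col-0. AT4G16940, next to RPP5, had 502 and 450 in tetraploid Col-0, against 69.9 and 72.6 in diploid Col-0. AT4G16880 and AT4G16960 were also higher in the tetraploid, by 1.75 ± 0.24 and 1.61 ± 0.24 on the log2 scale of the authors' deposited table, whereas AT4G16920 had 298 and 284 in tetraploid and 294 and 290 in diploid Col-0. These genes carry no description in the gene table used here, were named after their values were seen, and share the caution on near-identical copies.

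In the RPS6 cluster 2 of 9 other tested genes were called and beside CHS3 and CSA1 1 of 8. AT5G46500, between AT5G46490 and VICTL and also named after its values were seen, had 5.46 and 8.18 normalized counts in tetraploid Col-0, against 51.7 and 53.4 in diploid Col-0. The authors' deposited table called it lower (log2 −2.94 ± 0.66, adjusted p = 0.00015, DESeq2), so that 4 genes in a row were called lower there. Beside AT1G15890, AT1G15885 also had no reads in tetraploid Col-0, against 83.1 and 84.9 normalized counts in diploid Col-0, at least 53.0-fold lower. AT5G45240, near RPS4 and RRS1, had none in tetraploid Col-0 and 6.08 and 21.0 in diploid Col-0. Over the 5 genes on each side of all members, 48 of 171 tested neighbours were called in Col-0 (28.1%), compared with 15.4% of all genes. The share was 26.9% (18 of 67) beside called members and 28.8% (30 of 104) beside members that were not called. These neighbours may include further receptor genes, which could not be set apart without descriptions.

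In Ler the receptors listed there were close to equal between ploidies. The authors' deposited table called 1 of 28 members with an adjusted p (3.57%), where 5.1% of 18683 genes were called. The called member was RPP8, a coiled-coil receptor whose Ler form gives downy mildew resistance. RPP8 had 666 and 703 normalized counts in tetraploid Ler, against 455 and 455 in diploid Ler. It was 1.51-fold higher in the tetraploid according to the authors' deposited table (log2 0.59 ± 0.14, adjusted p = 0.0015, DESeq2). No member was called lower, against 1.91% of all genes, and none reached 2-fold with a call, against 1.28%. The log2 fold changes of the 28 members ran from −0.30 to 0.59 in the authors' deposited table, with a median absolute value of 0.18, against 0.17 over all genes. Libraries of the ploidies did not overlap in 15 of 28 members (53.6%), and in 54.5% of all genes.

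Helper receptors in Ler were also without a call. ADR1-L1 had 448 and 525 normalized counts in tetraploid and 387 and 328 in diploid Ler (log2 0.45 ± 0.17, adjusted p = 0.11 in the authors' deposited table; limma-voom adjusted p = 0.024). ADR1-L2 had 436 and 527 in tetraploid and 382 and 400 in diploid Ler. ADR1 had 89.1 and 119 in tetraploid and 103 and 90.9 in diploid Ler, which overlap. NRG1.1 had 404 and 413 in tetraploid and 426 and 513 in diploid Ler, and NRG1.2 had 134 and 135 in tetraploid and 113 and 133 in diploid Ler. The Ler table also lists an identifier that joins an accession name to the code of CAR1; it had 120 and 131 in tetraploid and 110 and 181 in diploid Ler and was not called.

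The difference between ecotypes was tested directly by subtracting the Col-0 from the Ler log2 fold change, with a Wald test adjusted over 21361 shared identifiers. It was called for 10 of 29 members (34.5%), against 8.71% of all shared identifiers. The log2 fold change, tetraploid over diploid, was higher in Ler for 8 of these and lower for 2. The caution on the choice of members applies here too. Against an empirical null 6 of the 10 were called, without RPP13, DSC1, RPP8 and AT1G15890 (adjusted p = 0.075, 0.28, 0.47 and 0.23). Of the 17 members called in Col-0, 11 are listed in Ler. None of these 11 was called there by DESeq2 in the authors' deposited table, 0 had an unadjusted p under 0.05, limma-voom called none of them either, and their Ler log2 fold changes ran from −0.21 to 0.20. The other 6 (RPP1, VICTL, VICTR, CSA1, CHS3 and RPP7) have no Ler value under their code, so the comparison covers only part of the Col-0 changes.

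SNC1 showed the contrast plainly. It had 664 and 780 normalized counts in tetraploid Ler and 680 and 762 in diploid Ler, which overlap, beside the Col-0 values given above, and the difference of the log2 fold changes was 3.53 ± 0.18 (adjusted p = 2.6e-85, Wald test over the 2 deposited tables). AT3G44670 had 897 and 1026 in tetraploid and 931 and 906 in diploid Ler, and a difference of 4.10 ± 0.19 (adjusted p = 2.5e-96, same Wald test). AT3G44630 had 921 and 981 in tetraploid and 1041 and 1161 in diploid Ler, with a difference of 1.75 ± 0.16. These 3 receptors were lower in tetraploid than in diploid Col-0, with no call in Ler. AT3G44400, higher in tetraploid Col-0, had 402 and 527 in tetraploid and 461 and 468 in diploid Ler; its difference was −2.37 ± 0.29.

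**Figure D3:**
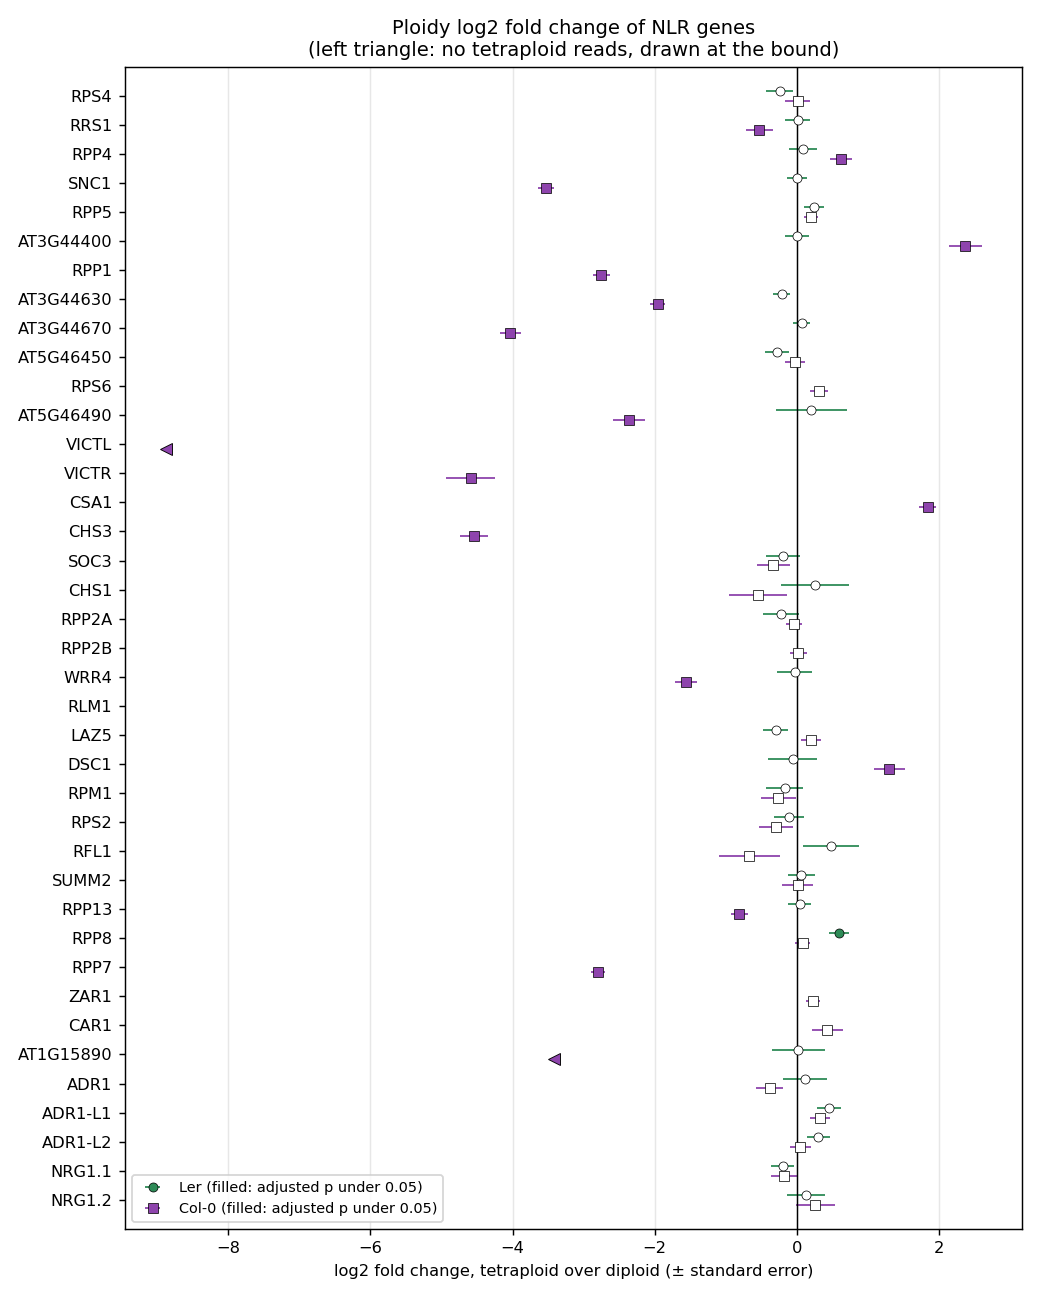
Log2 fold change, tetraploid over diploid, of 39 NLR genes in Ler (circles, upper of each pair) and Col-0 (squares, lower), with the authors' standard error; filled symbols have an adjusted p under 0.05. The Ler values lie between −0.30 and 0.59, whereas Col-0 values spread from the bounds of VICTL and AT1G15890 to 2.37; a missing circle is a gene not listed in Ler, and RLM1 is left blank for lack of reads.

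AT1G15890, without reads in tetraploid Col-0, had 58.7 and 74.7 normalized counts in tetraploid and 60.8 and 70.5 in diploid Ler. AT5G46490 had 38.0 and 35.4 in tetraploid and 26.9 and 37.1 in diploid Ler, with a difference of 2.55 ± 0.55. WRR4 had 163 and 158 in tetraploid and 139 and 188 in diploid Ler, and its difference was 1.53 ± 0.30. None of these 3 separated the ploidies in Ler. RPP13 had 434 and 452 in tetraploid and 413 and 445 in diploid Ler (difference 0.85 ± 0.20), and DSC1 had 71.7 and 102 in tetraploid and 77.7 and 104 in diploid Ler (difference −1.36 ± 0.40). RPP8, the 1 called difference of a gene with a call in Ler and none in Col-0, was at 0.51 ± 0.17 (adjusted p = 0.039, same Wald test). RPP4 and RRS1, called in Col-0, did not differ between ecotypes beyond the threshold: −0.53 ± 0.25 (adjusted p = 0.21) and 0.54 ± 0.25 (adjusted p = 0.2). No helper passed this test, with differences from −0.13 ± 0.38 for NRG1.2 to 0.48 ± 0.36 for ADR1.

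Levels across the tables were normalized separately and rest on different gene lists, so they are set side by side only as values. Group means of SNC1 were 722 and 721 normalized counts in tetraploid and diploid Ler, and 278 and 3203 in tetraploid and diploid Col-0. AT3G44670 averaged 961 and 919 in tetraploid and diploid Ler, and 109 and 1775 in tetraploid and diploid Col-0. AT3G44400 averaged 464 in both Ler ploidies, and 387 and 74.6 in tetraploid and diploid Col-0.

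Partners and regulators of the receptors were called in shares near those of all genes in both ecotypes. Of 23 genes on this list 22 are in the Col-0 table, and the authors' deposited table called 3 of them (13.6%), near the 15.4% of all genes. Against an empirical null HSP90.2 alone of these 3 was called in Col-0 (SGT1A adjusted p = 0.16). SGT1A, a cochaperone that helps receptors fold, had 1392 and 1396 normalized counts in tetraploid and 1041 and 1090 in diploid Col-0. Its relative SGT1B had 1731 and 1577 in tetraploid and 1877 and 2231 in diploid Col-0, in the opposite direction; without the tetraploid library of higher size factor its adjusted p was 0.27, and without the diploid one of higher size factor 0.5. The chaperone HSP90.2 rose in tetraploid Col-0 (log2 0.60 ± 0.06, adjusted p = 1.1e-18 in the authors' deposited table, DESeq2). EDS1 had 637 and 616 in tetraploid and 509 and 689 in diploid Col-0, and PAD4 and SAG101, which join it in signalling complexes, were not called in Col-0. In Ler, PAD4 was the 1 call among 21 tested partners (4.76%), with 180 and 232 normalized counts in tetraploid and 124 and 120 in diploid Ler (log2 0.76 ± 0.25, adjusted p = 0.043 in the authors' deposited table, DESeq2). Leaving out any of the 4 Ler libraries ended that call (adjusted p from 0.063 to 0.42), as did no filter on low counts (0.053) and an empirical null (0.26). Limma-voom called 3 partners higher in tetraploid Ler, PAD4 (adjusted p = 0.0076), EDS1 (0.039) and NDR1 (0.034). RIN4, PBS1, ZED1, RKS1, MEKK1, MPK4 and CRCK3, the host proteins and kinases that receptors watch or work with, had no call in either ecotype; ZED1 had 94.0 and 95.1 in tetraploid and 146 and 168 in diploid Col-0 (adjusted p = 0.062 in the authors' deposited table; limma-voom adjusted p = 0.01).

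Defence output genes, which receptor activation is known to switch on, were called mainly in Ler. There the authors' deposited table called 6 of 8 tested output genes (75%), all higher in the tetraploid, where 3.19% of all genes were called higher. This list too was chosen with earlier results of these data known, which may have raised the share. PR2, a secreted glucanase, had 957 and 644 normalized counts in tetraploid and 108 and 64.0 in diploid Ler. ACD6, an ankyrin protein that drives salicylic acid responses, had 355 and 507 in tetraploid and 27.9 and 25.1 in diploid Ler. PR1 had 43.5 and 166 in tetraploid and 1.99 and 3.71 in diploid Ler, a call that was lost without the tetraploid library of higher value (adjusted p = 0.1). SARD1 and WRKY70, transcription factors of salicylic acid signalling, and PR5 were the other 3. Every library of tetraploid Ler stood above both diploid libraries in these 6 genes, which largely follows from picking called genes. ICS1, an enzyme of salicylic acid synthesis, was not called in Ler (log2 0.31 ± 0.18, adjusted p = 0.42 in the authors' deposited table, DESeq2). Nor was CBP60G (log2 1.37 ± 0.68, adjusted p = 0.3, DESeq2). FMO1 and ALD1 had no adjusted p in Ler, at 3.93 normalized counts or fewer.

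In Col-0, 1 of 10 output genes was called (10%), against 15.4% of all genes. It was ACD6, with 2297 and 2227 normalized counts in tetraploid and 2553 and 3270 in diploid Col-0 (log2 −0.36 ± 0.11, adjusted p = 0.0056 in the authors' deposited table, DESeq2). Without the diploid library of higher size factor, which also has the higher PR1 and FMO1, that call was lost (adjusted p = 0.54), as it was without the tetraploid library of higher size factor (0.069) and against an empirical null (0.25). Limma-voom called 3 output genes lower in tetraploid Col-0, ACD6 (adjusted p = 0.028), PR2 (0.047) and PR5 (0.011). PR5 had 724 and 770 normalized counts in tetraploid and 1153 and 2251 in diploid Col-0, was not called in the authors' deposited table (adjusted p = 0.065) and was called without the diploid library of lower size factor (0.048). Leaving out the diploid library of higher size factor changed only RRS1 among the 17 member calls in Col-0. The Ler minus Col-0 difference in log2 fold change was called for 7 of 10 output genes, all positive, against 8.71% of all shared identifiers. Near that share, it was called for 2 of 22 partners (9.09%), SGT1B (0.44 ± 0.15) and HSP90.2 (−0.58 ± 0.11).

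**Figure D4:**
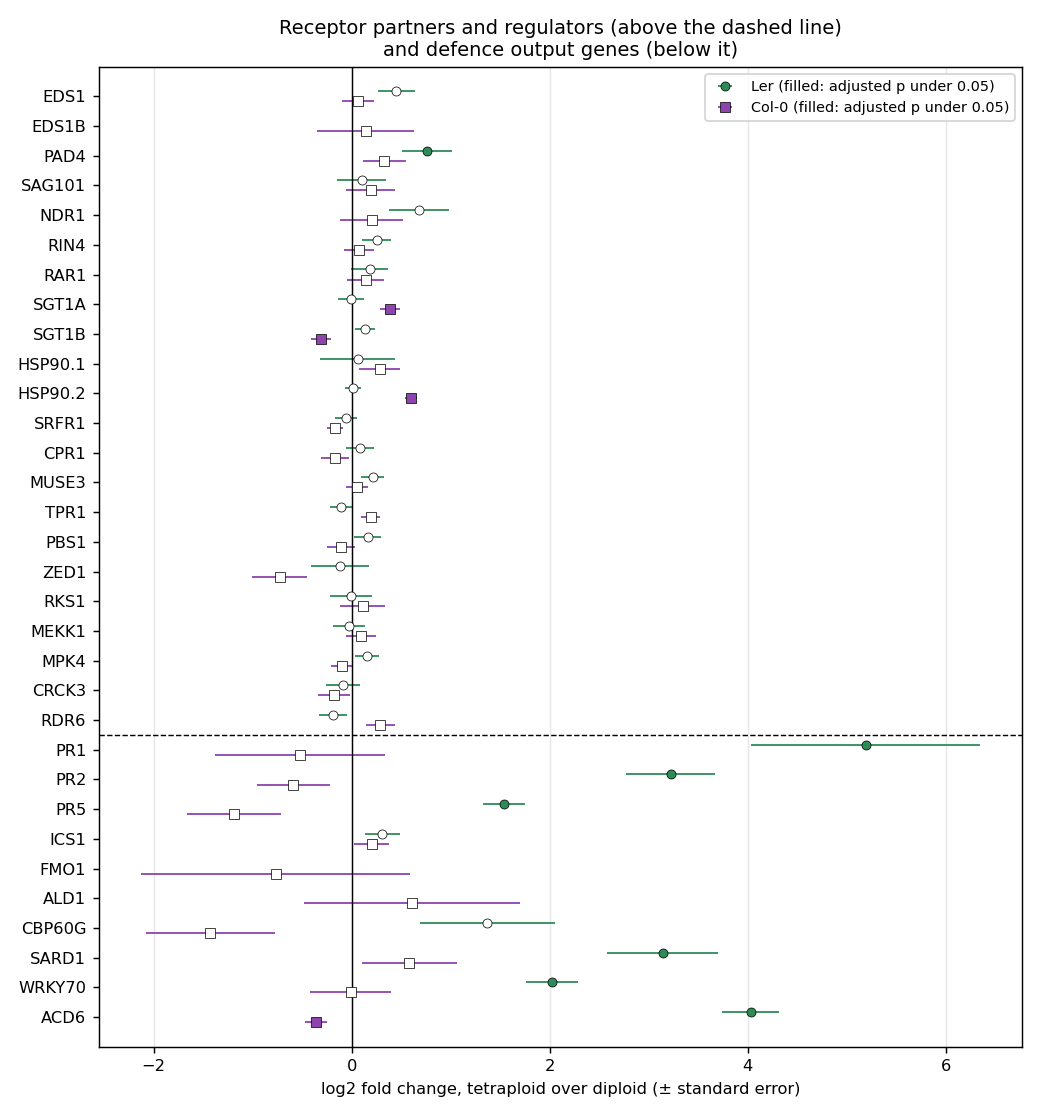
Log2 fold change, tetraploid over diploid, with the authors' standard error, of receptor partners and regulators (above the dashed line) and of defence output genes (below it) in Ler (circles) and Col-0 (squares); filled symbols have an adjusted p under 0.05. Partners lie between −0.19 and 0.76 in Ler and between −0.73 and 0.60 in Col-0, and the 6 called output genes in Ler, led by PR1 at 5.19, lie to the right of their Col-0 values.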

How the data were processed

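The members and gene lists were chosen with earlier results of these data known. Per the submitters' processing notes, HISAT2, Subread and DESeq2 were used with the build TAIR10; versions, strand use and the Ler reference are not given in the sources used here. Per the file headers, each of 2 deposited tables gives the authors' mean normalized count, a signal over 4 libraries, their log2 fold change and standard error on the log2 scale, a Wald statistic, which is a deposited score, and the authors' p-values, raw and Benjamini-Hochberg adjusted. The sign was read as tetraploid over diploid, because FLC is known to be higher in tetraploid Col-0 and diploid Col-0 is known for low ESP and high ESM1; for Ler it rests on the same table layout.

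The lowest means repeat in 4 steps, each the worth of 1 read in a library, which gave the size factors and their ploidy but no replicate number. Whole reads were then solved for genes with a mean up to 4000 (96.4% of genes in Ler and 96.5% in Col-0). The deposited fold change, unused in the mean, limited the range searched and was accepted within 0.0001. The main test stayed the authors' adjusted p under 0.05. Alternatives were no filter, a mean of at least 10, an empirical null (statistics centred and scaled to their robust spread), recentred fold changes, a 2-fold limit, 1 library left out (a Wald test at each gene's implied dispersion), and, chosen after seeing the data, limma-voom (limma 3.58.1, R 4.3.3). That dispersion was implied by the standard error over all 4 libraries, so a library left out still entered it. With 1 library left out, a gene without reads in a ploidy had a likelihood-ratio test in place of the Wald test. VICTL and AT1G15890 in Col-0 were tested that way. Folds against no reads use a floor of 3 reads over the group, which covers counting error only. Recovery and tests were tested on simulated data. Gene order and overlaps came from TAIR10.1, names only. Named in full were called members, helpers and members without reads. A planned list of other annotated NLR genes was not made, because the gene table has no descriptions. One member counted in the totals is not reported here.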

Additional observations from a re-analysis of the deposited data

Results flagged for a closer look

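In 10 members the ploidy log2 fold change differed between Ler and Col-0 by the Wald test of the difference. The Ler minus Col-0 difference was 3.53 for SNC1, −2.37 for AT3G44400, 1.75 for AT3G44630, 4.10 for AT3G44670 and 2.55 for AT5G46490. It was 1.53 for WRR4, −1.36 for DSC1, 0.85 for RPP13, 0.51 for RPP8 and 6.47 for AT1G15890, whose Col-0 estimate rests on no tetraploid reads and is no bound.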

How the results depend on the processing

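In Col-0, where 17 members were called, the count was 17 with no filter on low counts and with recentring, 16 with a mean of at least 10, 14 against the empirical null and with the 2-fold limit, and 21 with limma-voom, which added RPS6, CAR1, ADR1 and ADR1-L1. Leaving out 1 library gave 1 to 1 calls in Ler and 16 to 17 in Col-0, where RRS1 was the member lost. The Ler count of 1 became 0 with the 2-fold limit and 2 with limma-voom, and stayed at 1 in the other settings. The 10 called differences between ecotypes became 6 against the empirical null, where DSC1, RPP13, RPP8 and AT1G15890 were lost. They became 9 with a mean of at least 10 and 10 with recentring, and the cause was not tested. The share of all genes is given only for the main calls and the 2-fold limit (5.11% in Col-0, 1.28% in Ler). Counts in the other settings therefore do not show how the set stood against all genes there. Of 258 values of single members, 239 kept their direction and side of the threshold, 14 lost the call, 5 gained one and 0 reversed; recentring subtracted a median log2 fold change of −0.017 in Ler and 0.004 in Col-0. Fits with 1 library left out kept the dispersion from all 4 libraries, so they may overstate how stable the calls are. No paired analysis was possible because the recovered libraries carry no replicate number. Precision followed read depth: the standard error was 0.10 for RPP8 in Col-0 and 0.43 for RFL1, which has fewer reads, so a change detectable in RPP8 may not be detectable in RFL1.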
